A study of Mus musculus with 2 samples.

Results

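Olig1, Olig2, Sox8, Sox10, Pdgfra and Nkx2-2, 6 genes that mark and direct the oligodendrocyte lineage, were followed through 2 single-cell RNA-seq libraries of the perinatal mouse forebrain, 1 embryonic and 1 postnatal. The 6 genes were given as a list, and all 6 were found among the 31053 genes of the E18 table and the 31054 features of the P2 table. The E18 library came from CD1 mice at embryonic day 18 and held cortex together with the dorsal ventricular-subventricular zone (V-SVZ), the germinal layer that lines the lateral ventricles. At postnatal day 2 (P2) the mice were Emx1Cre;R26Eyfp fl/fl, and the library held dorsal and lateral V-SVZ without the cortex. In these mice Cre under the Emx1 promoter, active in the cortical primordium, switches on EYFP in those cells and their descendants. Tissue of each age was dissociated with papain and sorted for viable nucleated cells. Each age had 1 library, so no test was possible and no p-value is given, and age, mouse line, dissection and library cannot be told apart. The sources used here do not give how many animals went into a library, and the mark n2 in the P2 title is not explained.

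OLIG1 and OLIG2 are basic helix-loop-helix transcription factors that bind E-box motifs, and OLIG2 is needed to specify oligodendrocyte precursors. OLIG2 is also made by dividing neural progenitors that have not chosen this fate. SOX10 and its relative SOX8 are SOXE factors of the high-mobility-group family, and SOX10 appears as precursors commit and later drives myelin genes. PDGFRA, the receptor for the mitogen PDGF-A, marks oligodendrocyte precursor cells, and the homeodomain factor NKX2-2 acts as these cells begin to differentiate. Forebrain precursors arise from ventral (subpallial) and from cortical (pallial) germinal zones, and EYFP marks the cortical source at P2.

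On the GRCm38 assembly, Olig2 (chr16:91225457-91228677, plus strand) and Olig1 (chr16:91269772-91271933, plus strand) are neighbours, 41.1 kb apart. Sox8 lies at chr17:25565892-25570686 on the minus strand, Sox10 at chr15:79154908-79165240 on the minus strand, Pdgfra at chr5:75152292-75198215 on the plus strand and Nkx2-2 at chr2:147177546-147194243 on the minus strand. All 6 are annotated as protein-coding. Because OLIG proteins bind E-boxes and Sox8 and Nkx2-2 were lower at P2 in Olig cells without Sox10 and Pdgfra, the 250 bases before the RefSeq start of each gene with an entry (4 of 6) are shown, 5′ to 3′ on the strand of the gene. Capitals mark E-boxes, CANNTG, which read the same on both strands.
Olig2, chr16:91225300-91225549: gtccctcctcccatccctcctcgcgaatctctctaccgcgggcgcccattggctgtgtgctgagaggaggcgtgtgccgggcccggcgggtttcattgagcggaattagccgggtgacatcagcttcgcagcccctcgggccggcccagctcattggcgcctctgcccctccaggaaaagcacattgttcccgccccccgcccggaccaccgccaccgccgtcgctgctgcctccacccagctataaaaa
Sox8, chr17:25570687-25570936: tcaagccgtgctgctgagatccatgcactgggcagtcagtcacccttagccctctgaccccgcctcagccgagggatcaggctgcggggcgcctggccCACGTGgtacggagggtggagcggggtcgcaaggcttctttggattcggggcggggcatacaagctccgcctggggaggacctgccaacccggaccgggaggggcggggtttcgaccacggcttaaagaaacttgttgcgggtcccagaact
Pdgfra, chr5:75152001-75152250: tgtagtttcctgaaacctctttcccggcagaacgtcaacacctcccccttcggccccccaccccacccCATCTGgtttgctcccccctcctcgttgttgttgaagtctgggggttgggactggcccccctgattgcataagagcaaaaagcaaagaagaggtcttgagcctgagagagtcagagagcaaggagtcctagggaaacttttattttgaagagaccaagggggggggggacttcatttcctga
Nkx2-2, chr2:147186403-147186652: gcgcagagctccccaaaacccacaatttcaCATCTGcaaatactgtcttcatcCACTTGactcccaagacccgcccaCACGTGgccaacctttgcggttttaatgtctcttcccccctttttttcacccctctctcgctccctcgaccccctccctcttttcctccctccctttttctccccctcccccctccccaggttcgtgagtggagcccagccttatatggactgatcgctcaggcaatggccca
The window of Nkx2-2 held 3 E-boxes, those of Sox8 and Pdgfra held 1 each and that of Olig2 held 0. Of 32851 promoter windows of the same length in RefSeq, 66.2% held at least 1 E-box, so their presence sets no member apart. The Nkx2-2 window lies before a start site inside the annotated gene span. The Olig2 window runs past the annotated start of its gene. A match is a run of letters and not evidence of binding.

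Of 2922 E18 and 2778 P2 barcodes, 2496 and 2296 cells were kept, with medians of 6574 and 12525 UMIs (unique molecular identifiers, each standing for 1 captured transcript). The libraries shared 0 barcodes. Clusters were built without the 6 genes and EYFP and named from markers that do not include them, so each class name means cells like that type. The oligodendrocyte lineage class (E18 cluster 15 with 50 cells, P2 cluster 12 with 81 cells) had UMIs of all 12 of its markers, which summed to 1918 CPM (UMIs of the gene, or of the genes together, scaled to 1e6 UMIs of the class) at E18 and 3785 at P2. In every other class these markers summed to at most 506 CPM. The class also held 6041 CPM of radial precursor or astroglia markers at E18 and 4990.1 at P2, against 30289 and 21889 in the radial class itself, and at E18 1368 CPM of inhibitory progenitor and 1256 of excitatory intermediate progenitor markers. The 3 P2 clusters that scored as inhibitory progenitors are called by number and leading genes, because committed cells were common in 2 of them. Cluster 8 (117 cells) had Dll3 and Egfr among its leading genes, cluster 14 (71 cells) had Ccna2, Egfr and Top2a, and cluster 10 (87 cells) had Mcm3 and Mcm2. Of the P2 radial precursor or astroglia class, cluster 16 (51 cells) was led by Slc6a11, Id3, Htra1, Aldh1l1 and Aqp4, and cluster 13 (77 cells) by Aldoc, Crym and Clu.

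Olig1 and Olig2 were highest in the oligodendrocyte lineage class and were also high in several progenitor clusters with lower levels of Sox10 and Pdgfra. Olig1 stood at 2588 CPM in this class at E18 (2420.1 to 2765, exact Poisson interval) and at 2017 at P2 (1945 to 2091). Every interval given has 95% coverage of counting error and holds no variation between animals. Those of CPM, of ratios and of shares of UMIs also hold no variation between cells. The E18 cycling cluster 10, led by Ube2c and Top2a, held 563 CPM of Olig1 (518 to 609.8) and the E18 radial cluster 13 held 30.6 (17.8 to 49.0). At P2 Olig1 was 1777 CPM in cluster 8 (1718 to 1836), 702 in cluster 16 (654 to 753) and 564 in cluster 14 (534 to 595). It was 66.6 CPM in cluster 13 (54.2 to 81.04) and 33.1 in cluster 10 (25.9 to 41.6). The order of Olig1 levels over these P2 clusters was therefore 12, 8, 16, 14, 13 and 10, with no overlap of intervals between neighbours. Excitatory neurons, which do not belong to the lineage, held 1.06 CPM of Olig1 at E18 (0.595 to 1.75) against 11.1 in the P2 library (7.43 to 15.9). P2 microglia held 5.60 CPM (1.82 to 13.1).

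Olig2 was 812 CPM in the oligodendrocyte lineage class at E18 (719 to 913) and 622 at P2 (582 to 663). The E18 cycling cluster 10 held 395 CPM of Olig2 (358 to 435), which was closer to the level of its lineage class than for Olig1. At P2 Olig2 was 482 CPM in cluster 8 (451 to 513), 271 in cluster 14 (250.2 to 293), 249 in cluster 16 (221 to 280.1), 37.3 in cluster 13 and 32.1 in cluster 10. The intervals of clusters 14 and 16 overlapped, as did those of clusters 13 and 10.

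Sox8 was spread more widely. It was 147 CPM in the oligodendrocyte lineage class at E18 (109 to 194) against 215 in the P2 class (192 to 240.1). P2 cluster 8 held 151 CPM of Sox8 (134 to 169). P2 clusters 14, 13 and 16 held 77.4 (66.5 to 89.6), 70.0 (57.2 to 84.7) and 63.0 CPM (49.2 to 79.4) with overlapping intervals. Cluster 13, low in Olig1 and Olig2, thus did not differ in Sox8 from cluster 16 beyond counting error. P2 striatal neurons also held Sox8, at 30.5 CPM (23.5 to 38.9) with a UMI in 43 of 156 cells. Their Olig2 level, 2.86 CPM (1.05 to 6.22), was close to that of microglia, 3.36 (0.692 to 9.81).

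Sox10 and Pdgfra had their highest levels in the lineage class at both ages and far lower levels in the other clusters. Sox10 was 144 CPM there at E18 (107 to 191) and 296 at P2 (268 to 325), against 58.4 in P2 cluster 8 (48.2 to 70.0) and 14.2 in cluster 14 (9.77 to 19.9). The E18 cycling cluster 10 held 3 Sox10 UMIs, 2.84 CPM, and the E18 radial cluster 13 held 0. Pdgfra was 371 CPM in the lineage class at E18 (309 to 441) and 691 at P2 (649 to 735), against 134 in P2 cluster 8 (119 to 152) and 35.3 in cluster 14 (28.0 to 43.8). Pdgfra alone was also seen at 14.2 CPM (9.67 to 20.2) in P2 cluster 10, where Sox10 had 1 UMI.

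Nkx2-2 was the sparsest member, with 8 UMIs in 7 E18 cells and 188 UMIs in 103 P2 cells. In the lineage class it was 20.6 CPM at E18 (8.28 to 42.4) and 62.8 at P2 (50.6 to 77.0). The next highest P2 level was 31.0 CPM (21.6 to 43.2) in cluster 16, above cluster 8 with 11.2 (6.996 to 16.9) and cluster 14 with 7.74 (4.59 to 12.2). Cluster 16 thus ranked above cluster 8 for Nkx2-2 and below it for the other 5 members. Of the 103 P2 cells with an Nkx2-2 UMI, 96 also had Olig1 (93.2%, 86.5 to 97.2, exact Clopper-Pearson interval), 84 had Sox8 and 60 had Pdgfra.

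**Figure D1:**
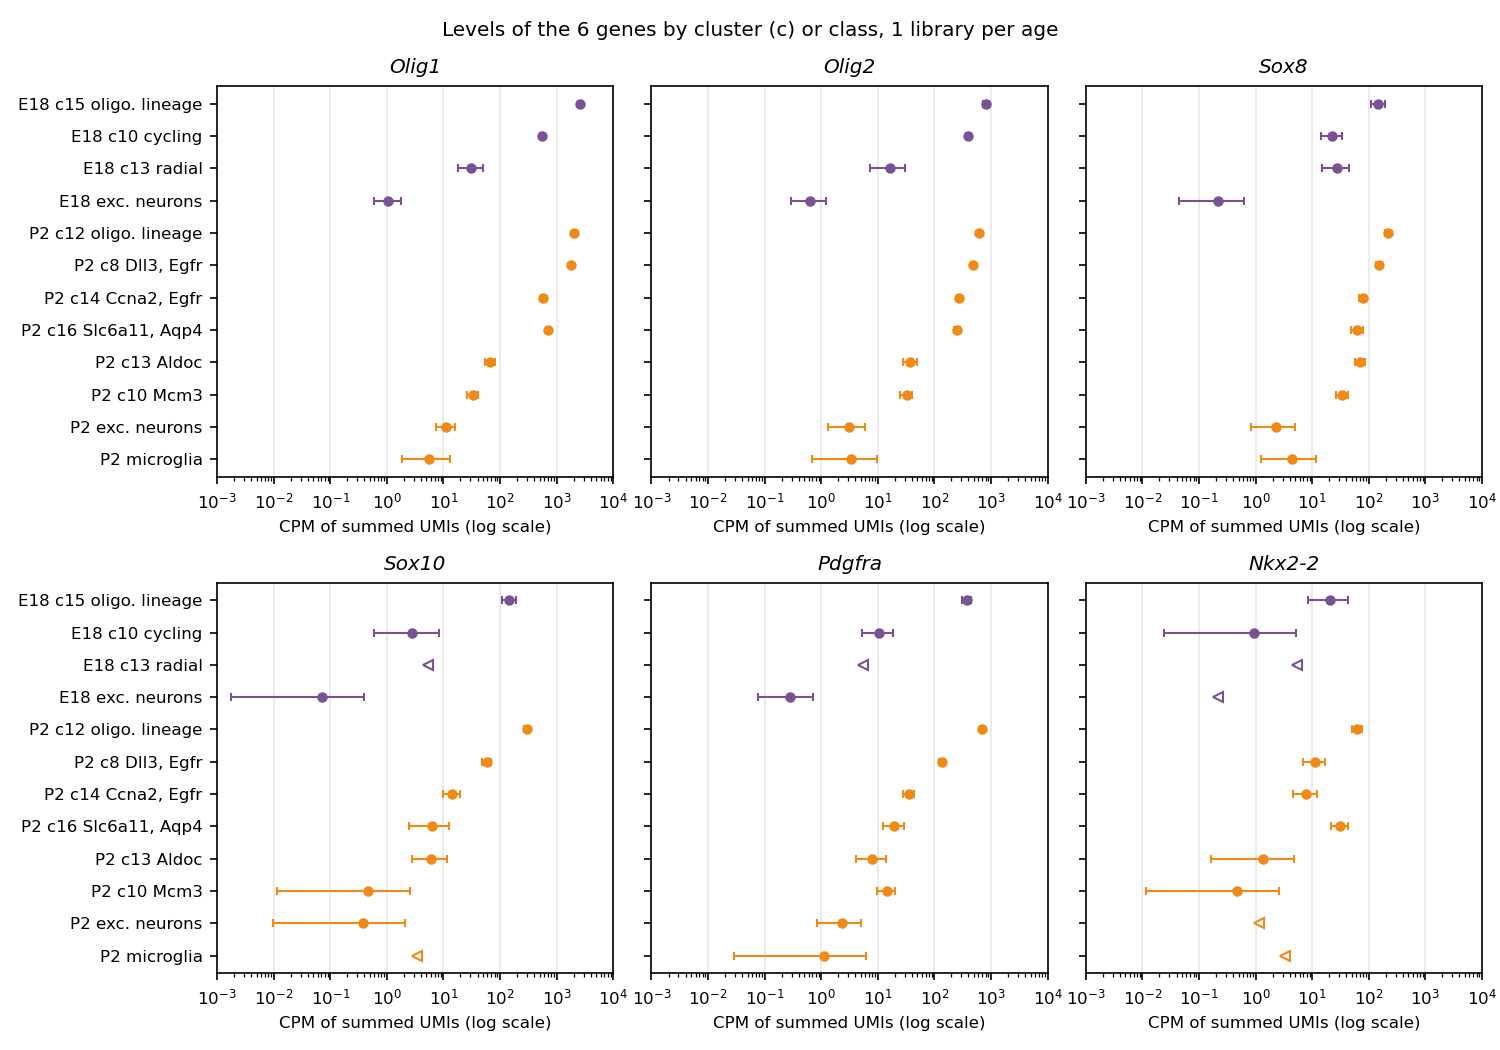
Level of each gene in CPM (log axis) in clusters (c) or classes of the E18 (purple) and P2 (orange) libraries, with exact Poisson intervals; open triangles mark 0 UMIs and stand at the level of 3 UMIs. Olig1 runs from 2588 CPM in the E18 lineage class to 1.06 in E18 excitatory neurons, and Nkx2-2 in P2 cluster 16 (31.0 CPM) lies above cluster 8 (11.2).

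Over 14 classes of both libraries (log2 of CPM + 10), Sox10 and Pdgfra followed each other with Pearson r = 0.986 and Olig1 and Olig2 with r = 0.980, while Olig2 and Sox10 had r = 0.804. The non-member genes most like Sox10 were Plpp4 (0.986), Lnx1 (0.983) and C1ql1 (0.982), and the one most like Nkx2-2 was Kank1 (0.979). For Sox8 it was Gfra1 (0.924), for Olig1 Tnk2 (0.921) and for Olig2 Gsx2 (0.900). These values describe 14 points that share libraries and depth. For Sox10 and Pdgfra the 2 lineage classes lie far above the rest. For Nkx2-2 the E18 lineage class, at 20.6 CPM, is near the P2 radial precursor or astroglia class, at 14.1.

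Cells with Olig1 or Olig2 UMIs but none of Sox10 or Pdgfra, called Olig-only, were set against committed precursors, which had a UMI of Olig1 or Olig2 and of Sox10 or Pdgfra. Olig-only cells were the more numerous by this rule at both ages, but at P2 the order depended on how many Olig UMIs were asked for. At E18 120 of 2496 cells were Olig-only (4.81%, 4.002 to 5.72) and 37 were committed (1.48%, 1.05 to 2.04). At P2 385 of 2296 were Olig-only (16.8%, 15.3 to 18.4) and 209 were committed (9.10%, 7.96 to 10.4). With 2 or more Olig UMIs there were 63 Olig-only and 37 committed cells at E18 but 169 and 187 at P2, and with 6 or more 48 and 34 at E18 but 89 and 163 at P2. Depth also moved both shares: with every cell thinned to 4000 UMIs and shallower cells left out (243 at E18, 160 at P2), Olig-only cells made up 3.86% at E18 and 10.4% at P2, and committed cells 1.24% and 6.18%. Cells with Sox10 or Pdgfra and no Olig UMI were few, 7 at E18 and 70 at P2, and 6 and 57 of them had a single such UMI.

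The number of Olig UMIs per cell was spread widely within the Olig-only state. At E18 57 of the 120 Olig-only cells had 1 Olig UMI, while 48 had 6 or more, with a median of 21 among those 48 and a highest value of 63. At P2 216 of 385 had 1, and 89 had 6 or more, with a median of 19 and a highest value of 144. Committed cells were mostly Olig-rich: 34 of 37 at E18 and 163 of 209 at P2 had 6 or more, with medians over all committed cells of 27 and 39. For comparison, 6 of 43 P2 microglia (13.95%) and 21 of 216 P2 excitatory neurons (9.72%) fell into the Olig-only state, at medians of 19431 and 12250.5 UMIs, and 24 of 1833 E18 excitatory neurons did (1.31%, median 6827 UMIs). Thinned to 4000 UMIs, 2 of 34 P2 microglia (5.88%) remained so. The cells with 1 Olig UMI cannot be told apart from that background one by one, so a limit of 6 Olig UMIs (Olig-rich cells), chosen after seeing these counts, was used beside the rule. Of the cells with 6 or more Olig UMIs and Olig1, Olig2 was also detected in 79 of 82 at E18 and 238 of 247 at P2.

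**Figure D2:**
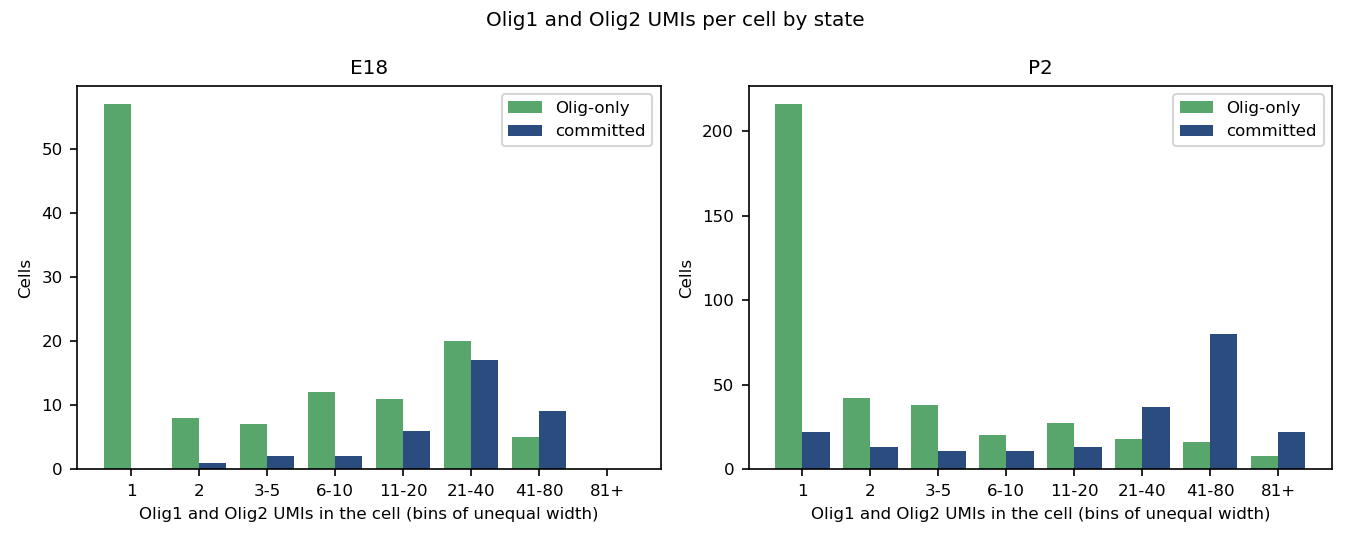
Number of Olig-only and committed cells (y axis) by UMIs of Olig1 and Olig2 together in the cell (x axis, bins of unequal width) at E18 and P2. Olig-only cells peak at 1 UMI (57 and 216 cells) and 48 and 89 of them have 6 or more, where most committed cells lie.

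Olig-rich Olig-only cells sat in different clusters at the 2 ages. At E18 37 of the 48 were in the cycling cluster 10 and 11 in the oligodendrocyte lineage class, and 0 of the 15 Olig-only cells of the radial class had 6 or more UMIs. At P2 45 of the 89 were in clusters 8, 14 and 10, 41 in the radial precursor or astroglia class (35 in cluster 16 and 6 in cluster 13) and 1 in the cycling class. Cluster 16 was the most Olig-only: 44 of its 51 cells (86.3%, 73.7 to 94.3), 35 of them Olig-rich, against 3 committed. In the lineage class 33 of 50 E18 cells were committed and 15 Olig-only, while all 81 P2 cells were committed. Thinned to 4000 UMIs, 76 of 81 P2 cells (93.8%) and 25 of 44 E18 cells (56.8%) of this class were committed, so the gap remained at equal depth. Of the 209 committed P2 cells, 81 were in the lineage class and 88 in clusters 8, 14 and 10.

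**Figure D3:**
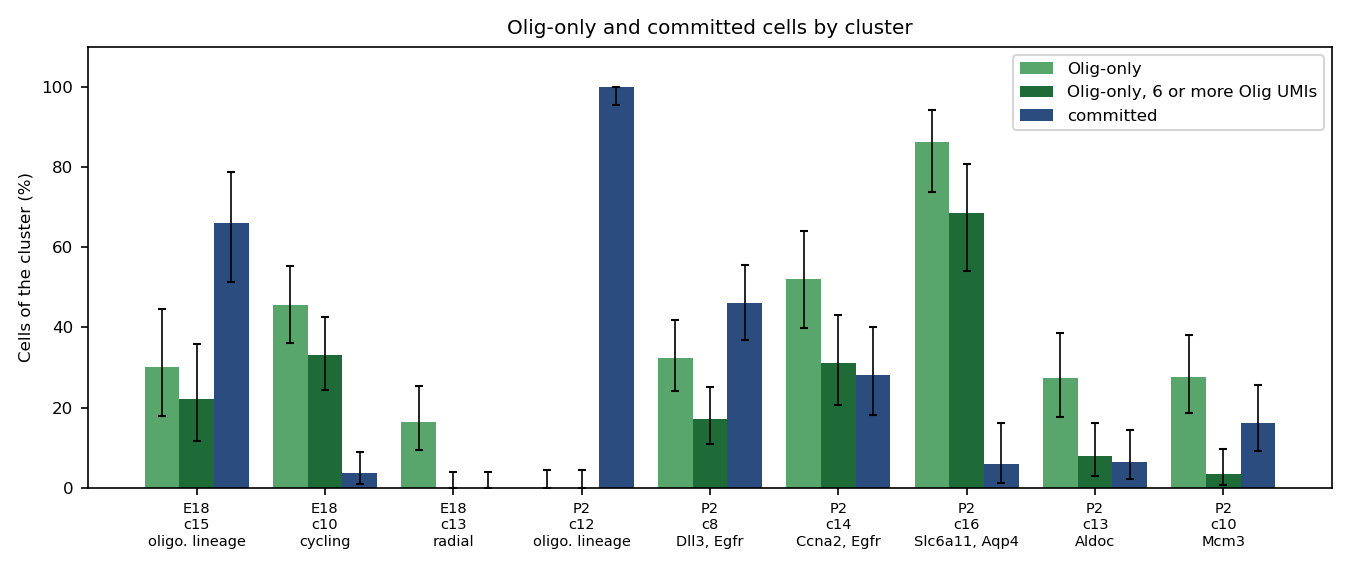
Percent of the cells of 9 clusters (c) that were Olig-only, Olig-only with 6 or more Olig UMIs, or committed, with exact binomial intervals. P2 cluster 16 is 86.3% Olig-only and P2 cluster 12 is wholly committed.

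Committed cells differed in which marker they showed. At E18 23 of 37 had both Sox10 and Pdgfra, 13 had Pdgfra alone and 1 had Sox10 alone. In the P2 lineage class 71 of 81 had both, 8 had Sox10 alone and 2 had Pdgfra alone. Among the 128 committed P2 cells outside it 41 had both and 74 had Pdgfra alone (57.8%, 48.8 to 66.5). In cluster 14 15 of 20 had Pdgfra alone, in cluster 8 20 of 54, and in the cycling cluster 15 all 10. A single UMI of Pdgfra is enough for the rule, and these clusters were deeper (medians 32434, 18595 and 30112 UMIs) than the lineage class (15521).

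Within each library Olig-only cells were lower than committed cells in Sox8, which the rule did not use, and in Olig1 and Olig2, which it did. Nkx2-2 was lower at P2 and too sparse to call at E18. In progenitor and glial classes 48 of 88 E18 and 87 of 216 P2 Olig-only cells had 6 or more Olig UMIs. Of committed cells 34 of 37 and 160 of 197 did. The pooled Olig1 and Olig2 levels are therefore not independent of a rule that asks for 1 Olig UMI. Restricted to progenitor and glial classes, 88 E18 Olig-only cells held 843 CPM of Olig1 against 3302 in the 37 committed cells, a log2 ratio of -1.97 (-2.12 to -1.82). Olig2 was 610 against 960 CPM, a log2 ratio of -0.65 (-0.88 to -0.42), less than 2-fold. Sox8 was 47.7 against 123 CPM, a log2 ratio of -1.37 (-2.10 to -0.64). Nkx2-2 had 1 against 7 UMIs and did not reach the minimum of 10 UMIs, which the other 5 members passed. In this contrast 12.2% of 8283 genes were 2-fold or more apart with an interval that excludes equality, 6.80% higher and 5.40% lower in Olig-only cells. Such genes are called higher or lower here. At P2 all 6 passed the minimum. The 216 Olig-only cells of these classes were compared with all 209 committed cells, of which 197 were in these classes and 12 in neuronal ones. The Olig-only cells were lower in Olig1 (401 against 1365 CPM, log2 -1.77), Olig2 (191 against 403, -1.07), Sox8 (57.4 against 131, -1.18, -1.39 to -0.99) and Nkx2-2 (9.25 against 26.4, -1.51, -2.02 to -1.03). Of 13180 genes 11% were called, 4.03% higher and 7.0% lower.

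The 2 states differed in their clusters, so the ratios were also taken inside single clusters, a comparison added after seeing the data. In P2 cluster 8 38 Olig-only cells held 1058 CPM of Olig1 against 2623 in 54 committed cells (log2 -1.31, -1.43 to -1.19), with medians of 20710 and 18663 UMIs. Olig2 was 463 against 609 CPM there (log2 -0.39, -0.60 to -0.19), and Sox8 113 against 190 (log2 -0.75, -1.16 to -0.35). Cluster 14 showed the same order with smaller gaps: Olig1 531 against 977 CPM (log2 -0.88) and Olig2 311 against 380.0 (log2 -0.29), while Sox8, 83.8 against 90.5 CPM, did not differ beyond counting error (log2 -0.11, -0.58 to 0.37). Cluster 16 did not show this order for Olig1, which was 712 CPM in 44 Olig-only cells and 706 in only 3 committed cells (log2 0.01, -0.30 to 0.35), while Olig2 was 234 against 395 there (log2 -0.76, -1.20 to -0.29). In the E18 lineage class 15 Olig-only cells held 1573 CPM of Olig1 against 3281 in 33 committed cells (log2 -1.06, -1.30 to -0.82), and Olig2 was 718 against 905 (log2 -0.33, -0.72 to 0.04). Sox8 was 154 against 146 CPM there, with an interval of the log2 ratio from -0.85 to 0.96.

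Summed over all cells of a state, Olig2 took a larger part of the Olig UMIs in Olig-only than in committed cells. It was 41.9% of them at E18 (39.0 to 44.8) against 22.5% in committed cells (20.1 to 25.1), and 32.3% at P2 (30.7 to 33.9) against 22.8% (21.9 to 23.7). With 6 or more Olig UMIs the values were 41.7% against 22.4% at E18 and 30.3% against 22.5% at P2. The gap was present inside P2 cluster 8 (30.4% against 18.8%), P2 cluster 14 (37.0% against 28.0%) and E18 cluster 15 (31.3% against 21.6%). Cluster 16 went the other way, with 24.7% in its Olig-only cells (22.0 to 27.6) and 35.9% in its 3 committed cells (28.0 to 44.4). These intervals count UMIs, and 3 cells are too few to show how cells vary, so that order is not settled. The P2 lineage class had 23.6% (22.2 to 24.9).

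Sox8 and Nkx2-2 were compared at equal depth in Olig-rich cells of progenitor and glial classes. After thinning to 4000 UMIs, Sox8 was found in 27 of 87 P2 Olig-only cells (31.0%, 21.5 to 41.9) and 84 of 160 committed cells (52.5%, 44.5 to 60.4). Nkx2-2 was found in 5 of 87 (5.75%, 1.89 to 12.9) and 21 of 160 (13.1%, 8.31 to 19.4), with overlapping intervals. At E18 Sox8 was found in 9 of 46 and 10 of 32, and Nkx2-2 in 0 of 46, which allows up to 6.52%, and 2 of 32.

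The wider oligodendrocyte precursor program was lower in Olig-only cells at both ages. Of the 25 genes of a precursor list, 23 could be measured at E18 and 21 were lower in Olig-only cells, 0 higher, with a median log2 ratio of -2.71 against 0.13 over all genes. At P2 18 of 24 were lower and 0 higher, with a median of -1.95 against -0.02. Some of these genes also served to name the lineage class. The states were set without them but by Sox10 and Pdgfra, and C1ql1 and Cspg4 follow Sox10 over classes (r = 0.982 and 0.98). The lower values of the list are therefore not independent of the rule. Lhfpl3, a tetraspan membrane protein, had 0 UMIs in E18 Olig-only cells against 258 CPM in committed cells, and 1.32 against 213 CPM at P2. Cspg4, which encodes the NG2 proteoglycan of precursors, was 0 against 100 CPM at E18 (0 against 26 UMIs) and 2.64 against 64.9 at P2. C1ql1, a secreted C1q-like protein, was 11.9 against 570 CPM at E18 and 7.74 against 221 at P2. Ptprz1, a receptor phosphatase shared with radial glia, was not called at either age (log2 0.16 and 0.40).

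Genes of differentiating oligodendrocytes were lower as well, 6 of 8 measured at E18 and 15 of 18 at P2, where the median log2 ratio was -4.32. Gpr17, a receptor of early differentiating cells, had 0 UMIs against 150 CPM at E18 and was 0.189 against 91.2 CPM at P2. At P2 Mbp, a major myelin protein, was 10.01 against 260 CPM. Nkx6-2 was the single gene of the list higher in P2 Olig-only cells (5.85 against 1.41 CPM). Astroglial genes were higher in Olig-only cells: 13 of 21 at E18 and 17 of 22 at P2, with 1 lower at each age and medians of 1.38 and 1.42. Aldh1l1, an astroglial folate enzyme, was 74.1 against 3.85 CPM at E18 and 103 against 15.9 at P2. The exception was Ntrk2, a neurotrophin receptor, at E18 (58.2 against 123 CPM) and S100b, a calcium-binding protein also made by oligodendrocytes, at P2 (1.13 against 34.7 CPM). At P2 65 of the 216 Olig-only cells but 8 of the 209 committed cells were in the radial precursor or astroglia class, which was named from some of the same genes. At E18 15 of the 88 Olig-only cells were, while the committed cells were in the lineage class (33) and the cycling class (4). The part of cell class in the astroglial difference was not tested.

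Cell division genes were higher in Olig-only than in committed cells at E18, and 0 were called at P2. Of 20 G2/M genes 19 were higher and 0 lower in E18 Olig-only cells (median log2 1.95), and Mki67, a proliferation marker, was 152 against 50.1 CPM. At P2 0 of 20 were called in either direction (median 0.71), and Mki67 was 347 against 203 CPM. Between the ages, Olig-only cells had 2 of 20 G2/M genes higher and 0 lower at P2 (median -0.003), while committed cells had 14 higher and 0 lower (median 1.38). At E18 51 of the 88 Olig-only cells of these classes were in the cycling cluster, so cell class moves with this difference and its part was not tested. Pallial patterning genes were higher at E18 in 6 of 7 (median 1.78), led by Pax6 (169 against 3.85 CPM) and Emx1 (42.4 against 3.85), and 1 of 7 at P2 (Pax6, 129 against 61.9 CPM). Cell class moves with the pallial difference too, and its part was not tested. Inside E18 cluster 15 Pax6 had 2 UMIs in Olig-only and 0 in committed cells, while Lhx2 was higher in Olig-only cells (log2 1.81, 0.82 to 2.85). Inside P2 clusters 8 and 14 Pax6 was higher in Olig-only cells (log2 0.78 in each). Lhx2 was higher in those of cluster 8 (log2 0.49, 0.07 to 0.92) but lower in those of cluster 14 (log2 -0.47, -0.79 to -0.15). In cluster 16, with 3 committed cells, the log2 ratio was -0.78 (-1.58 to 0.10) for Pax6 and -0.40 (-1.03 to 0.29) for Lhx2. Of the Hedgehog pathway genes 2 of 8 were higher at E18, Gas1 (483 against 57.8 CPM) and Cdon (66.2 against 11.6), both co-receptors. At P2 3 of 11 were higher, the transcription factors Gli1 (9.06 against 3.23 CPM), Gli2 (15.7 against 7.46) and Gli3 (36.4 against 17.1). The S-phase list had 10 of 20 genes higher at E18 and 0 of 20 called at P2. Lists of early progenitor genes, of gliogenic and lineage transcription factors and of PDGF and MAP kinase feedback genes were split in direction, with 2, 8 and 2 genes higher and 3, 4 and 3 lower at E18, and 1, 3 and 2 higher and 2, 3 and 2 lower at P2.

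The 5 genes furthest apart in each direction were named for this contrast at each age. Lower in Olig-only cells at both ages were Cntn1, a cell adhesion protein, Lhfpl3, Matn4, an extracellular matrix protein, and Gpr17, joined by C1ql1 at E18 and Lims2 at P2. Cntn1 had 0 UMIs against 289 CPM at E18 and was 4.15 against 190 CPM at P2. Higher at E18 were Efhd2 (200 against 0 CPM), Tnc, a matrix protein of radial glia (175 against 0), Hopx, an outer radial glia marker (240 against 7.71), Lxn (119 against 0) and Pax6. Higher at P2 were Sst, the somatostatin precursor (51.0 against 1.81 CPM), Crym (74.4 against 4.44), Aldh1l1, Lxn (178 against 36.1) and Fgfbp3 (216 against 48.2). Without the restriction to progenitor and glial classes, Olig-only cells included neurons at both ages and 6 microglia at P2, and the 10 microglia genes summed to 514 CPM in them against 5.65 in committed cells. That contrast called 10% of genes at E18 (5.96% higher, 4.05% lower) and 10.1% at P2 (5.20% higher, 4.91% lower), and its ratios for Olig1, Olig2 and Sox8 had the same signs, from log2 -2.34 (Olig1, E18) to -1.03 (Olig2, E18). Sox10 and Pdgfra are at 0 in Olig-only cells by the rule.

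The contrast was also read in the Olig-rich cells of single clusters. Lhfpl3 had 0 UMIs in the 37 Olig-only cells of E18 cluster 10 and in the 11 of E18 cluster 15, against 309 CPM (238 to 395) in the 30 committed cells of cluster 15. At P2 it was 1.13 CPM in cluster 16, 2.86 in cluster 14 and 4.46 in cluster 8 for Olig-only cells, and 38.7, 105 and 596 in committed cells of clusters 14, 8 and 12. Egfr, the receptor of a progenitor mitogen, was lowest at P2 in cluster 12: it was 213 to 286 CPM in Olig-only cells of clusters 16, 14 and 8 and 230.4 and 203 in committed cells of clusters 14 and 8, but 16.4 in cluster 12. In cluster 16 the water channel Aqp4 was 198 CPM and the glutamate transporter Slc1a3 was 2145. Mbp was 849 CPM (802 to 897) in cluster 12, against at most 17.9 in every other group drawn.

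**Figure D4:**
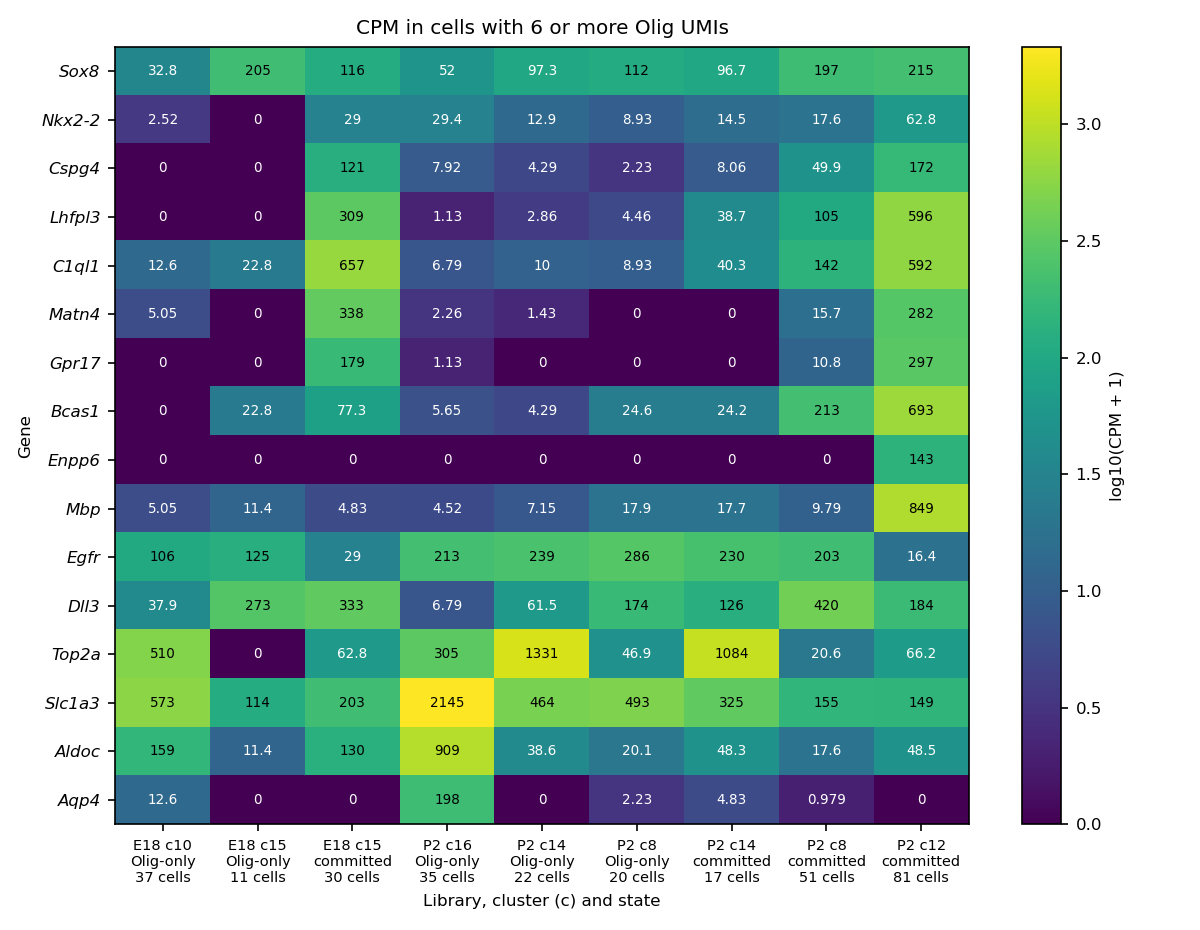
CPM of 16 genes (rows, printed in each cell and coloured as log10 of CPM + 1) in cells with 6 or more Olig UMIs, by library, cluster (c) and state (columns). Lhfpl3 and C1ql1 are higher in every committed column than in every Olig-only column, Egfr is 16.4 CPM in P2 cluster 12, and Mbp reaches 849 CPM there.

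Between the ages, committed cells as a whole and cells of the lineage class gave different answers for the later factors. Over all committed cells (209 at P2, 37 at E18) Olig1 was 1365 against 3302 CPM (log2 -1.27, -1.38 to -1.17) and Olig2 403 against 960 (log2 -1.25), both called lower at P2, in a contrast where 12.7% of 12158 genes were called, 9.89% higher and 2.81% lower. Sox10 was 123 against 200 CPM (log2 -0.70, -1.11 to -0.27) and Pdgfra 296 against 513 (log2 -0.79), while Sox8 and Nkx2-2 did not differ beyond counting error (log2 0.08 and -0.03). Thinned to 4000 UMIs before calling the states, Sox10 and Pdgfra turned to 0.28 and 0.04. Within the lineage class, a comparison added after seeing this, Sox10 was higher at P2 (log2 1.04, 0.61 to 1.49), as were Pdgfra (0.90, 0.63 to 1.18), Nkx2-2 (1.61, 0.51 to 2.96, 92 against 7 UMIs) and Sox8 (0.55, 0.11 to 1.01). Olig1 and Olig2 were lower there (log2 -0.36 and -0.38). This class was found at E18 only with the main settings and at resolution 2, so the comparison could not be made under the other clusterings. For committed cells of the class alone, 81 against 33, the interval of Sox10 reached from -0.07 to 0.81, that of Pdgfra from -0.05 to 0.50 and that of Nkx2-2 from -0.17 to 2.28. Sox8 stayed higher in them (log2 0.56, 0.02 to 1.14), and Olig1 and Olig2 were further apart than in the whole class (log2 -0.70 and -0.54). Of the 50 cells of the E18 class 15 were Olig-only.

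Among differentiation genes 8 of 17 were higher in P2 committed cells and 0 lower, among them Mbp (260 against 7.71 CPM). Of the precursor list 1 of 24 was higher and 7 lower. Dlx6os1, the antisense transcript of Dlx6, and Gad2, an enzyme of GABA synthesis, were also among the genes furthest higher at P2 (124 against 0 CPM and 145 against 3.85), together with Purb. The genes furthest lower were Hddc3, Eif3j2, Mfap4, Lmo1 and Glo1. Of 12 inhibitory lineage genes 10 were higher and 0 lower at P2 (median log2 2.41 against 0.09 over all genes), and the P2 dissection included the lateral V-SVZ. At P2 88 of the 209 committed cells were in the clusters that scored as inhibitory progenitors, from markers that include some of these genes. At E18 33 of the 37 were in the lineage class. The parts of the dissection and of cell class in these differences were not tested.

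In Olig-only cells of progenitor and glial classes (216 at P2, 88 at E18), Olig1 was 401 against 843 CPM (log2 -1.07, -1.20 to -0.94) and Olig2 191 against 610 (log2 -1.67, -1.83 to -1.51). Nkx2-2 was called higher with 49 UMIs at P2 and 1 at E18 (log2 2.81, with an interval from 0.26 to 8.14), and Sox8 did not differ beyond counting error (log2 0.27, -0.23 to 0.81). Of 12174 genes 16.8% were called, 13.1% higher and 3.75% lower. Inhibitory lineage genes were higher at P2 in 11 of 12 (median log2 3.20 against 0.19 over all genes) and subpallial patterning genes in 5 of 9. Of the 216 P2 cells 99 were in the clusters that scored as inhibitory progenitors, and of the 88 E18 cells 51 were in the cycling cluster. The parts of cell class and dissection were not tested. Excitatory lineage genes were lower in 7 of 10, among them Eomes, a factor of excitatory intermediate progenitors (5.29 against 66.2 CPM), and pallial genes in 3 of 7, with Emx1 at 2.83 against 42.4 CPM. The genes furthest higher were Crym, Tiam2, Rpgrip1, Dlx6os1 and Meg3, and those furthest lower were Hopx (16.4 against 240 CPM), Neurod6, Eomes, Hddc3 and Eif3j2.

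At P2 EYFP was more common in committed than in Olig-only cells, by a margin that depended on depth. Of committed cells in progenitor and glial classes 128 of 197 had an EYFP UMI (65.0%, 57.9 to 71.6) and of Olig-only cells 86 of 216 (39.8%, 33.2 to 46.7). Among Olig-rich cells the shares were 103 of 160 (64.4%, 56.4 to 71.8) and 36 of 87 (41.4%, 30.9 to 52.4). With EYFP read at 4000 UMIs per cell they were 57.1% (49.9 to 64.2) and 30.0% (23.8 to 36.9), with the states called from all UMIs, and at 2000 UMIs 42.3% and 25.5%. With the states called again after thinning, they were 55.4% (46.4 to 64.1) and 38% (30.2 to 46.3) at 4000 UMIs but 37.9% (28.1 to 48.4) and 31.9% (24.7 to 39.7) at 2000, where the intervals overlapped. The median depths of the committed and Olig-only cells were 20314 and 23304.5 UMIs. Microglia, which do not descend from the Emx1 lineage, had EYFP in 0 of 43 cells, which allows up to 6.98%, striatal neurons in 21 of 156 (13.5%) and excitatory neurons in 177 of 216 (81.9%, 76.2 to 86.8). Among all 2296 cells 36.5% had EYFP.

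The P2 lineage class held no Olig-only cell, so the states could be compared inside the other clusters. In cluster 8 38 of 54 committed cells had EYFP (70.4%, 56.4 to 82.0) against 10 of 38 Olig-only cells (26.3%, 13.4 to 43.1), and at 4000 UMIs 62.3% against 25.0%. With 6 or more Olig UMIs the cluster 8 values were 37 of 51 and 8 of 20, with intervals from 58.3 to 84.1 and from 19.1 to 63.9 that overlapped. In cluster 14 they were 14 of 20 (70.0%, 45.7 to 88.1) and 18 of 37 (48.6%, 31.9 to 65.6), which also overlapped, and in the Olig-only cells of cluster 16 17 of 44 (38.6%, 24.4 to 54.5). The lineage class was lower than committed cells elsewhere, 46 of 81 (56.8%, 45.3 to 67.8) against 82 of 116 (70.7%), with overlapping intervals. In progenitor and glial classes, cells with a Pdgfra UMI had EYFP in 147 of 213 (69.0%, 62.3 to 75.2), and those with Nkx2-2 in 48 of 97 (49.5%, 39.2 to 59.8). EYFP was strong where present: EYFP-positive Olig-only cells had a median of 11.5 EYFP UMIs and committed cells 15, with 17.4% and 6.25% at a single UMI.

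**Figure D5:**
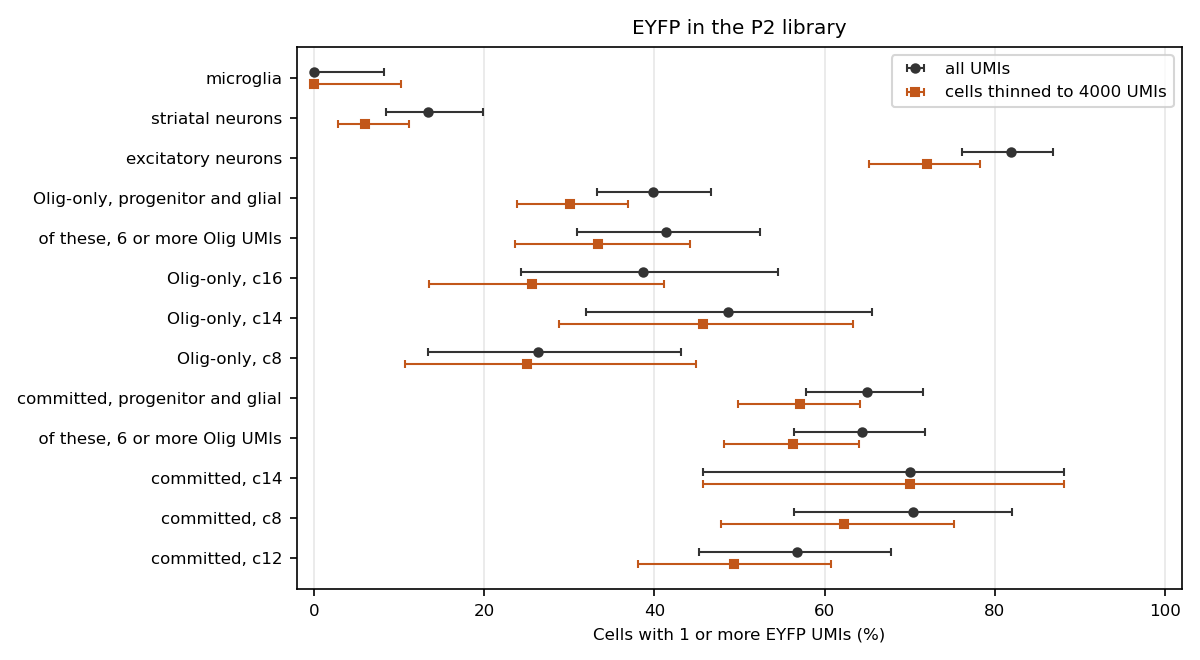
Percent of P2 cells with 1 or more EYFP UMIs (x axis) by class, state and cluster (c), with exact binomial intervals, from all UMIs and after thinning each cell to 4000 UMIs. Committed cells of progenitor and glial classes stand at 65.0% and 57.1%, Olig-only cells at 39.8% and 30.0%, between microglia (0 of 43 cells) and excitatory neurons (81.9%).

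Committed cells with and without EYFP (137 and 72) were less than 2-fold apart in 5 members and further apart in Nkx2-2. EYFP shares fell when cells were thinned, so cells without an EYFP UMI can include cells of the marked lineage, here and in the Olig-only cells below. Olig1 was 1303 against 1503 CPM (log2 -0.21), Olig2 387 against 439 (log2 -0.18), Sox8 120 against 154 (log2 -0.36), Pdgfra 278 against 335 (log2 -0.27) and Sox10 107 against 158 (log2 -0.56, -0.79 to -0.32). The counting intervals of these 5 ratios excluded equality. Nkx2-2 was 17.2 against 47.0 CPM (log2 -1.45, -1.97 to -0.93), from 59 and 72 UMIs, in a contrast that called 4.10% of 12102 genes, 1.15% higher and 2.95% lower. Inside the lineage class (46 and 35 cells) Nkx2-2 was 39.1 against 90.7 CPM (log2 -1.21, -1.89 to -0.57), while Olig1, Olig2 and Pdgfra were slightly higher in EYFP-positive cells (log2 0.19, 0.23 and 0.33) and Sox8 and Sox10 did not differ beyond counting error. In the other committed cells of progenitor and glial classes (82 and 34) Nkx2-2 was 11.7 against 13.6 CPM, with an interval of the log2 ratio from -1.28 to 0.94. The difference between these groups was not tested.

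Differentiation genes differed in the same direction as Nkx2-2. Of 17 measured, 12 were lower in EYFP-positive committed cells and 0 higher (median log2 -1.60 against -0.02), and among the genes furthest lower were Cldn11, a myelin tight-junction protein, Mbp, Mag, a myelin-associated glycoprotein, and S100b. Inside the lineage class Mbp was 510 against 1249 CPM (log2 -1.29, -1.47 to -1.12) and Cldn11 44.2 against 204 (log2 -2.20). The genes furthest higher were Sparcl1 (200 against 17.0 CPM), Lhx2 (125 against 40.5), Efhd2, Insm1 and Pax6. Sparcl1 had 685 UMIs in committed cells with EYFP and 26 in those without, and 349 of all these came from the 3 committed cells of cluster 16. The size of its ratio thus rests in part on very few cells of the radial precursor or astroglia class. Inside the lineage class, which does not hold them, Sparcl1 was 53.0 against 7.43 CPM (log2 2.83), from 42 and 5 UMIs. Of the patterning genes 3 of 7 pallial ones were higher (Lhx2, Pax6 and Dmrta2) and 4 of 9 subpallial ones lower (Six3, Nkx2-1, Lhx6 and Vax1).

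In Olig-only cells of progenitor and glial classes (86 with EYFP, 130 without) 0 of the 4 members present were called. Olig1 was 335 against 454 CPM (log2 -0.44, -0.57 to -0.31), and the intervals of Olig2, Sox8 and Nkx2-2 included equality (log2 -0.14, 0.01 and -0.12). This contrast called 3.03% of 11976 genes, 1.78% higher and 1.25% lower. Pallial genes were higher in 4 of 7 (median log2 1.27), among them Pax6 (191 against 79.1 CPM), Dmrta2 and Emx1, and excitatory lineage genes in 4 of 7. Subpallial genes were lower in 3 of 9. Among the genes furthest lower in EYFP-positive cells were Sst (1.26 against 91.4 CPM), Npy, a neuropeptide (5.05 against 110), Gatm and Six3, and those furthest higher were Islr2, Tgfb2, Rlbp1, Pcdh8 and Pla2g7.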

How the data were processed

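The authors deposited 1 table of unnormalised UMI counts, genes by barcodes, for each library, made with Cell Ranger 4.0.0 per the file headers and the mm10 genome per the submitters' processing notes. How barcodes were called as cells is not given. Cells with at least 500 genes and at most 10% mitochondrial UMIs were kept. Scrublet in scanpy 1.11.5 marked 0.266% and 0.164% of cells as doublets, too few to have worked, so the 5% of cells with the highest scores were dropped (135 at E18, 146 at P2, of which 81 P2 cells were Olig-only or committed). Cells were clustered with Leiden (leidenalg 0.10.2, resolution 1, 2000 variable genes, 30 components) without the 6 genes, EYFP, mitochondrial, haemoglobin and sex-linked genes, and named from marker lists. Class names rest on this clustering, not on an annotation by the authors. Progenitor and glial classes are the oligodendrocyte lineage, radial precursor or astroglia, cycling and progenitor classes.

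UMIs were summed over cells and given as CPM. Ratios carry exact conditional intervals and needed 10 UMIs in both groups together, and a call needed 2-fold with an interval excluding equality. Thinning drew 4000 UMIs per cell. Genes are named by the interval bound nearest equality, among those with 50 CPM or more in either group, 8 per direction between the states over all classes, which the text does not list, and 5 elsewhere. The scripts were tested on simulated data. The 6 genes, the 17 gene lists and the comparisons were chosen with earlier results of these data known. Total UMIs were 19986915 at E18 and 42572208 at P2.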

Additional observations from a re-analysis of the deposited data

How the results depend on the processing

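No result changed direction under an alternative setting where its main value was a call. Sox10 and Pdgfra between the ages in committed cells, which were less than 2-fold apart and not called, did change sign with thinning to 4000 UMIs. No paired analysis was possible because each age has 1 library. Needing 2 Olig UMIs gave Olig-only shares of 2.52% at E18 and 7.36% at P2, and needing 6, a limit added after seeing the data, gave 1.92% and 3.88%, with 7.10% of P2 cells committed. Thinning to 2000 UMIs gave Olig-only shares of 3.32% and 8.76% and a committed P2 share of 4.29%; 4000 gave 3.86%, 10.4% and 6.18%, and 6000 gave 11.8% and 6.94% at P2. Needing both Sox10 and Pdgfra gave 0.922% and 4.88% committed. The EYFP share of Olig-only cells was 32.9% with 2 EYFP UMIs and 31.9% with states called again at 2000 UMIs, and that of committed cells was 37.9% with states called again at 2000 UMIs, 55.4% at 4000 and 73.3% with a mitochondrial limit of 5%.

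Counts of called genes, higher then lower, depended on the minimum count. At 50 UMIs they were 352 and 123 (542 and 368) for Olig-only against committed cells at E18, 409 and 424 (714 and 674) at P2, 329 and 118 (563 and 447) in E18 progenitor and glial classes, 340 and 537 (531 and 923) in P2 ones, 75 and 47 (213 and 150) for EYFP in Olig-only cells and 75 and 141 (139 and 357) in committed cells, with the main counts in brackets. With thinning to 4000, 264 were higher at E18 and 315 higher and 275 lower in its progenitor and glial classes; between ages 1005 and 302 (1593 and 457) in Olig-only and 502 and 171 (1203 and 342) in committed cells; for EYFP 139 higher and 250 lower in Olig-only cells and 192 lower in committed cells. With 6 Olig UMIs, 1126 were lower at P2 and 132 higher for EYFP in Olig-only cells. With both markers, 1107 were lower at P2, 975 higher in its progenitor and glial classes, 707 higher between ages and 237 lower for EYFP in committed cells. Against the lineage class alone, P2 counts were 1168 and 1586, and 1167 and 1805 in progenitor and glial classes. The 5% mitochondrial limit gave 444 higher at P2.

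With high-score cells kept, the P2 lineage class held 1664 CPM of Olig1, 537 of Olig2, 173 of Sox8, 240 of Sox10, 571 of Pdgfra and 50.3 of Nkx2-2; with the 5% limit it held 2447 of Olig1 and 762 of Olig2. The E18 lineage class was found only with the main settings and at resolution 2. The cause was not tested. Depth limits Nkx2-2 at E18, with 8 UMIs.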
